A study of Mus musculus with 462 samples.

Results

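linc1319 is a long noncoding RNA (lncRNA) locus of mouse embryonic stem cells whose transcript lies next to Sfmbt2. The results below follow 4 counted features of it, the row of the whole transcript and the rows linc1319-Exon2, linc1319-Exon3 and linc1319-Exon4 (Exon2, Exon3 and Exon4 where the meaning is plain), chosen by name out of 1588 row names in the series. Poly(A)+ RNA was measured, after enrichment of chosen transcripts with probes (hybrid selection), in 439 libraries of the 462 samples, each library being 1 clonal line of a 129/Castaneus F1 hybrid embryonic stem cell. The linc1319 row is in 243 of these libraries and the exon rows are in 76 of them, those with the date labels 150801 and 151101.

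The 66 clones modified at linc1319 fall into 14 groups, and 2 clones of the group Sfmbt2-PromoterDeletion were added because that gene is the nearest neighbour. At the 5′ end the groups are PromoterDeletion (5 clones, date label 141107) and PromoterInsertion (9 clones, 150216), for which the labels do not say what was inserted. Insertions labelled pAS, a polyadenylation signal that ends transcription early, are named by a distance: 40 bp (3 clones) and 0.5 kb (4 clones), both 150216, and 2 kb (5 clones), 4 kb (7 clones) and 15 kb (1 clone), all of a later date label. The groups inside the transcript are 5ssDeletion (2 clones) and Exon2KO (4 clones), both 151101, and Exon3Deletion (4 clones), Exon4Deletion (9 clones), Intron1Deletion (3 clones), Intron2Deletion (4 clones) and Intron3Deletion (6 clones), all 150801. Here 5ss stands for a 5′ splice site. The 134 Control clones carry the date labels 141107 (63 clones), 150216 (12), 150801 (29) and 151101 (15), and 15 have a date that none of these groups carries.

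All groups share the F1 background and the serum-free 2i/LIF medium. Per the series design the modifications are heterozygous, but the labels name neither the modified chromosome nor which allele column is 129 and which Castaneus, so the columns are called the first and the second allele. The labels name a female line, whereas the growth text speaks of male cells. Each group is a set of single clones, and the labels do not give the ends of any deletion.

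Mammalian lncRNA loci can act on a neighbouring gene through their promoter, through the act of transcription or splicing, or through the RNA product. Modifications that remove the promoter, end transcription early, or remove a splice site, an exon or an intron separate these steps, and a heterozygous clone of a hybrid line shows the modified and the unmodified chromosome in the same cell. linc1319 has been named Blustr in the literature, and Sfmbt2 encodes a Polycomb group protein.

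In the files' build, mm9, the linc1319 row spans chromosome 2 from 10249878 to 10286859, a length of 36982 bp. The Exon2 row spans 10266844 to 10267050 (207 bp), the Exon3 row 10263153 to 10263437 (285 bp) and the Exon4 row 10260949 to 10261164 (216 bp). Exon numbers run against the coordinates, so the numbering starts from the end that faces Sfmbt2. The Sfmbt2 row begins at 10292078, which is 5218 bp beyond the end of the linc1319 row, and 12 rows other than the linc1319 rows lie within 1 Mb.

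**Figure D1:**
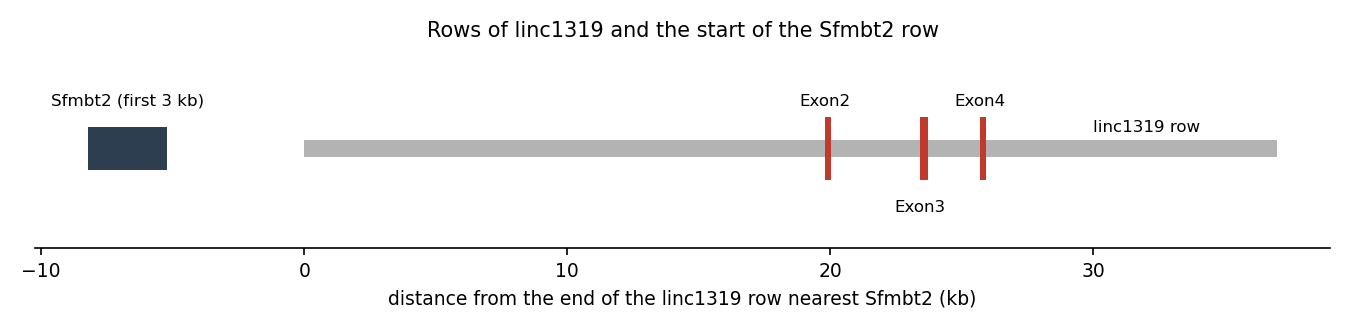
The linc1319 row (grey bar), its 3 exon rows (red) and the first 3 kb of the Sfmbt2 row (dark) by distance in kb from the end of the linc1319 row nearest Sfmbt2. The Exon2 row starts 19809 bp from that end, the Exon3 row 23422 bp and the Exon4 row 25695 bp, and Sfmbt2 begins 5218 bp on the other side.

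Libraries with the row held from 65278 to 2981776 allele-assigned counts, with a median of 915578. Levels are counts scaled to a library total of 1000000 (CPM). In such bulk libraries fewer cells with a transcript and less of it per cell cannot be told apart. Of the 12 embryonic stem cell markers looked for, 3 were captured, and Nanog had from 17943 to 46106 CPM in the 68 modified clones and from 15046 to 34796 CPM in the Control clones. Medians in modified and Control clones were 25695 and 22659 CPM for Nanog, 5472 and 7016 CPM for Dppa3, and 5485 and 5844 CPM for Tcl1. Marker levels were not tested. The mesendoderm genes Eomes and Gsc and the neural gene Nes were detected in every clone, at up to 982, 788 and 3104 CPM in modified clones and up to 801, 1338 and 2714 CPM in Control clones. Their medians were 426, 224 and 690 CPM in modified clones and 278, 420 and 1274 CPM in Control clones. None of the 3 trophoblast or 4 fibroblast markers was captured.

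In unmodified cells linc1319 came from both alleles, with the first higher. The 63 Control clones of 141107 had from 374 to 1062 CPM with a median of 619 CPM, and the medians were 656 CPM in 150801, 671 CPM in 151101 and 819 CPM in the 15 clones of the date without a modified group. The log2 ratio of the first over the second allele had a median of 1.32 over the 133 Control clones with at least 20 linc1319 counts, and it was above 0 in all 133.

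Several Control clones stood apart. The labels give the Control clones of 150216 a P number of unstated meaning, and all 5 of P3 and P4 were unlike the other 7, which had from 552 to 833 CPM. Clone C12 of P3 had 2993 CPM, with 890 and 562 counts on the first and the second allele, and clone E12 of P3 had 0 counts of linc1319 in a library of 180796. The 3 clones of P4 had 84 and 4, 74 and 0, and 56 and 0 counts, so the second allele was nearly or wholly absent. In 150801, clone B12 of P10 had 157 and 16 counts, a log2 ratio of 3.25, where the group's median was 1.37. The tests of totals and allelic deviations that use these clones are therefore also given without them. These clones were picked after seeing the data, by the same linc1319 values that are tested. Values without them therefore show only how far a result rests on these clones, and their p-values are no further support.

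**Figure D2:**
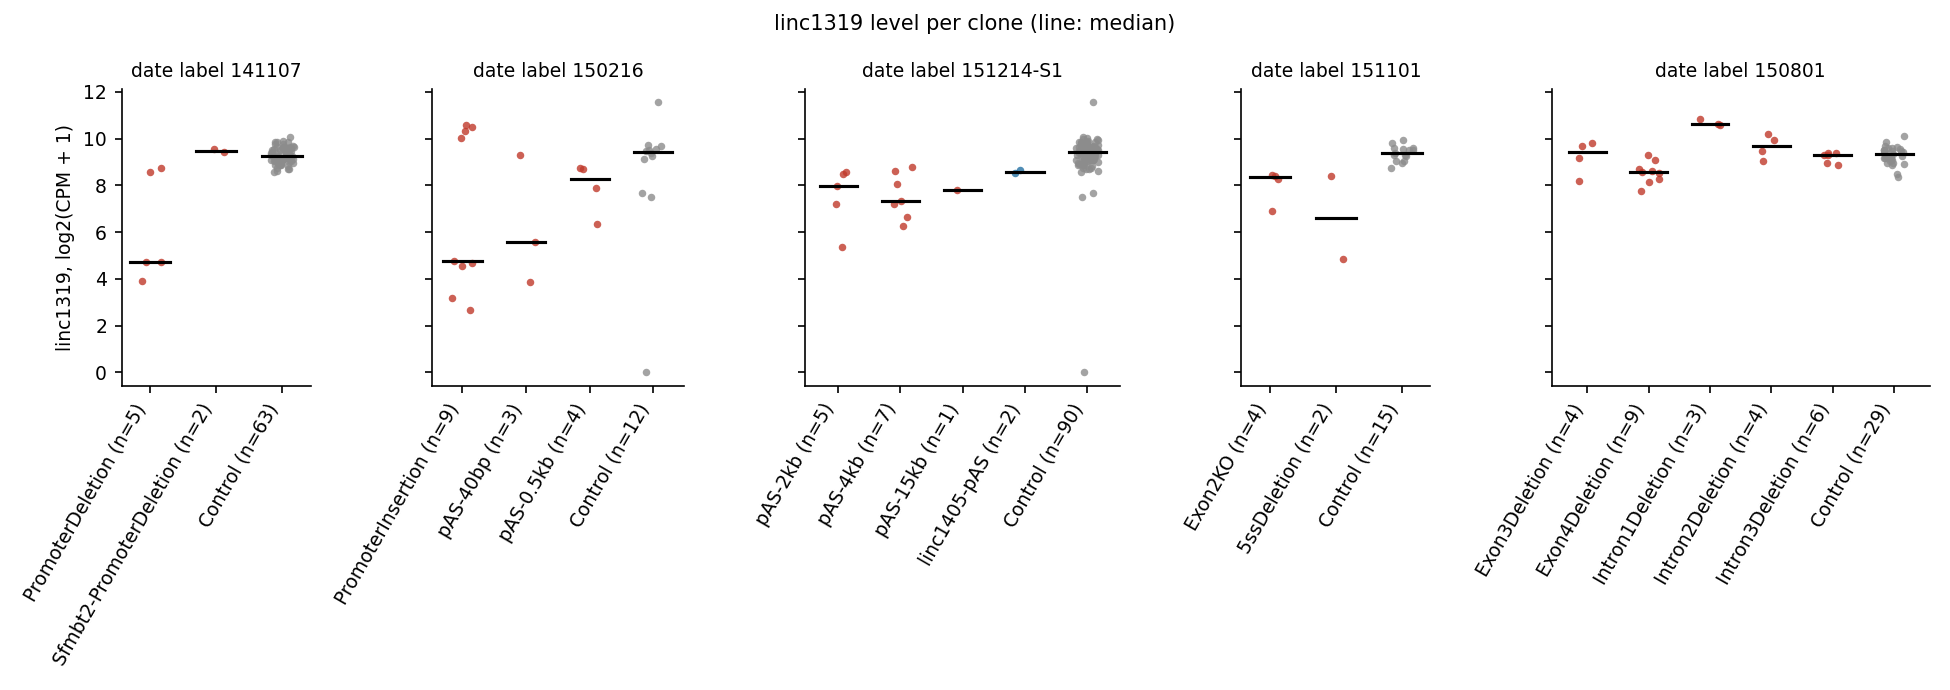
linc1319 level per clone as log2(CPM + 1), by date label, with modified clones in red, linc1405-pAS clones in blue, Control clones in grey (of other dates beside the 2 kb, 4 kb and 15 kb groups, whose date has none) and the median as a line. Promoter and pAS groups hold clones far below Control clones beside clones near them, and the 3 Intron1Deletion clones lie above all 29 Control clones of their date.

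Deletion of the promoter left linc1319 RNA below 10 CPM on the second allele in all 5 clones and below 20 CPM on the first allele in 3 of them. The counts on the first and the second allele were 667 and 11 in B1, 672 and 11 in G6, 27 and 12 in C1, 27 and 13 in F1, and 20 and 8 in G7. In CPM the second allele had from 4.50 to 7.86 in PromoterDeletion clones, against 90.2 to 303 in the 63 Control clones of 141107. Clones B1 and G6 kept 375 and 421 CPM on the first allele, within the Control range of 268 to 758 CPM, while C1, F1 and G7 had 17.7, 9.35 and 18.4 CPM there. So no clone of this group overlapped the Control clones on the second allele, and 3 fell below them on both alleles, although the design text calls the modifications heterozygous. Here and below, how many other rows separate a group from its Control clones in this way was not counted.

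Over the group, linc1319 averaged 175 ± 210 CPM in PromoterDeletion clones and 648 ± 158 CPM in Control clones (SD, n = 5 and 63). The fall of 1.95 ± 0.34 on the log2 scale passed edgeR's quasi-likelihood test (Benjamini-Hochberg adjusted p = 9.8e-05), in a comparison that called 2.25% of rows lower and 4.33% higher. The allelic deviation was measured as the distance of a clone's log2 ratio, in either direction, from the pooled median of the clones compared, and averaged over clones with at least 20 counts. Since the usual ratio lies above 0, a clone with equal alleles deviates too. Groups were compared by a two-sided exact permutation test. It was 1.92 ± 2.39 in PromoterDeletion clones and 0.17 ± 0.16 in Control clones (SD). The exact permutation p was 0.00188 for linc1319 alone, when 2.49% of all rows had a larger deviation at an unadjusted p under 0.05, and 0.528 after adjustment over all rows.

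Deleting the Sfmbt2 promoter gave no detected change of linc1319. Clone B11 had 751 CPM, with 517 CPM on the first allele and 234 CPM on the second, and clone D10 had 680 CPM, with 537 and 142 CPM. Both clones lay within the range of the 63 Control clones in level, in each allele and in ratio. The log2 fold change was 0.10 ± 0.24 (edgeR, adjusted p = 0.802), in a comparison that called 4.7% of rows higher and 0.871% lower, and the allelic deviation differed by 0.21 (exact permutation p = 0.0726, with 11.8% of rows at an unadjusted p under 0.05 in the larger direction). Sfmbt2 itself had opposite alleles in these clones, 389 CPM on the first and 1016 CPM on the second in B11, and 2120 and 81.2 CPM in D10.

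Insertion at the promoter left from 0 to 4 second-allele counts of linc1319 in each of the 9 clones, with first-allele levels far apart. Clones B9, G10, G4 and G9 had 1453, 1048, 1289 and 1517 CPM in total, of which 1447, 1009, 1289 and 1517 CPM were on the first allele. The 5 other clones, B10, B8, G8, H4 and H5, had 26.3, 22.4, 7.99, 24.7 and 5.31 CPM in total, from 2 to 14 counts each. No clone lay between 26.3 and 1048 CPM. G4 had 0 second-allele counts of 349, which allows a share of up to 0.86%, and G9 had 0 of 278, which allows up to 1.08%; such limits cover counting error only.

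The highest first-allele level of the 7 Control clones of 150216 outside P3 and P4 was 576 CPM, which 4 of 9 PromoterInsertion clones exceeded, and clone C12 of P3 had 1835 CPM. linc1319 averaged 599 ± 702 CPM in PromoterInsertion clones and 760 ± 757 CPM in Control clones (SD, n = 9 and 12), with a spread as large as the mean in both, and the log2 fold change of -0.41 ± 0.80 did not pass (edgeR, adjusted p = 0.88, 0.198% of rows called lower). Without P3 and P4 it was -0.30 (adjusted p = 0.937). The allelic deviation, over the 4 clones with at least 20 counts, was 5.82 ± 2.24 in PromoterInsertion clones and 1.64 ± 1.83 in Control clones (exact permutation p = 0.0044, with 1.31% of rows at that level, and 0.589 after adjustment over all rows). The difference of 4.18 was 6.12 without P3 and P4, with an exact permutation p of 0.00303.

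**Figure D3:**
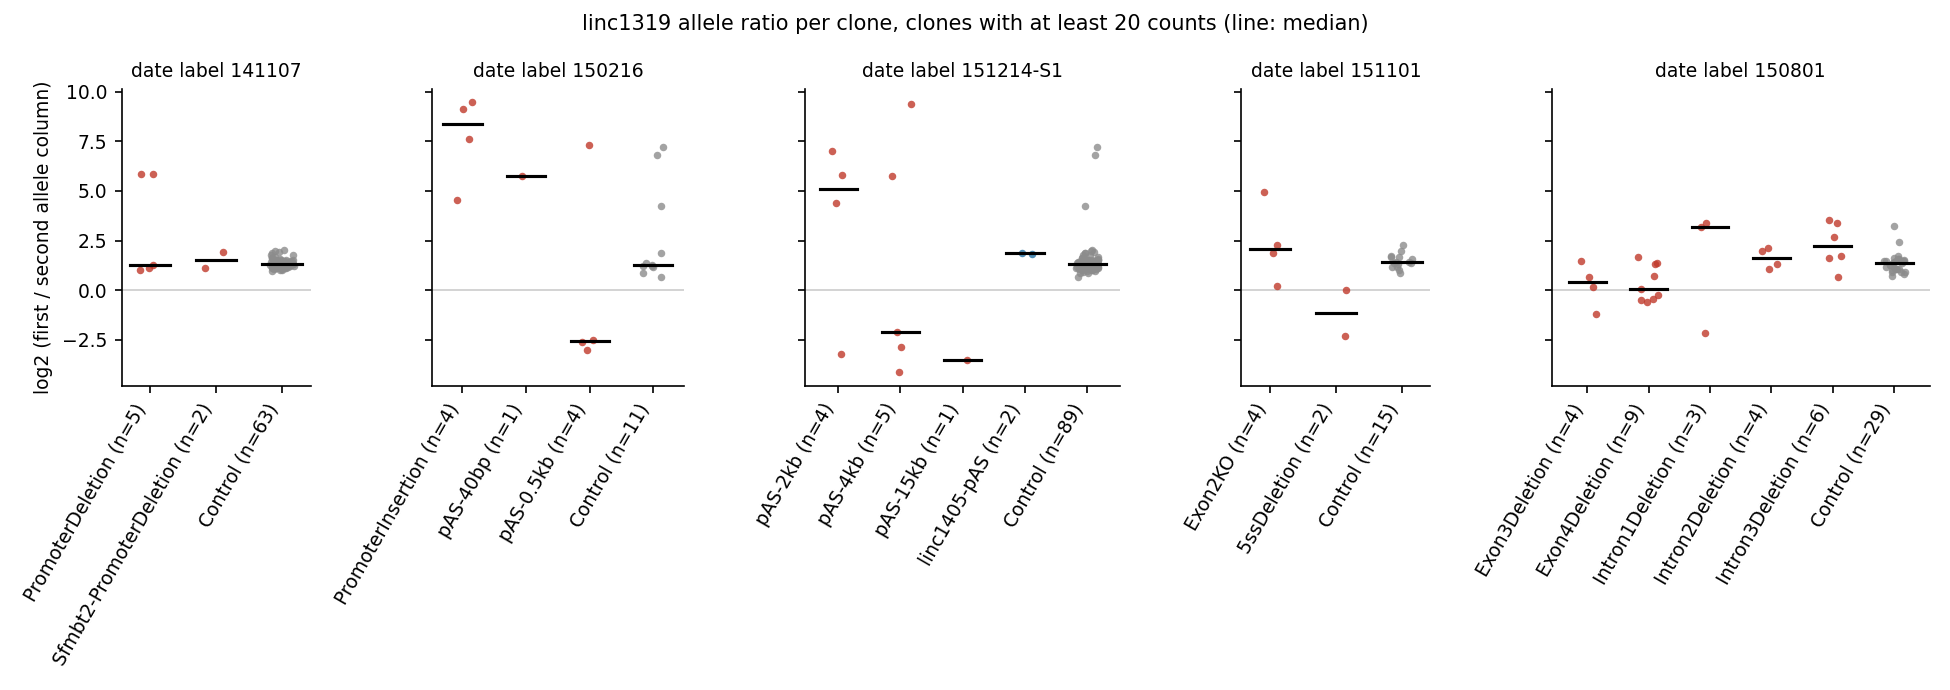
log2 ratio of the first over the second allele column of linc1319 per clone, by date label, for clones with at least 20 counts, coloured and grouped as in the plot of levels. Control clones gather near a median of 1.32, and pAS clones lie on both sides, from -4.12 to 9.39 among the 2 kb, 4 kb and 0.5 kb groups.

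Across the insertions labelled pAS, most clones showed 1 allele near 0, and either allele could be the low one. At 40 bp, clone C2 had 625.1 CPM on the first allele and 9.33 CPM on the second, while A6 had 37.3 and 9.96 CPM and B4 had 9.04 and 4.52 CPM, from 19 and 6 counts in all. At 0.5 kb, clones A7, C11 and E2 had 30.8, 7.72 and 63.8 CPM on the first allele and 203, 72.03 and 370 CPM on the second, and A8 had 417 CPM on the first allele and 0 of 80 counts on the second, which allows up to 3.75%. Thus C2 at 40 bp and A8 at 0.5 kb had a low second allele beside a high first one, while A6 and B4 at 40 bp were low on both. The first allele was lower in the other 3 clones at 0.5 kb. A lower second allele is by itself usual, since all 133 Control clones with at least 20 counts had it.

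At 2 kb, clone B4 had 13.7 CPM on the first allele and 132 CPM on the second, and D11 had 17.8 and 22.2 CPM from 9 counts. In C10, F2 and F6 the first allele had 340, 250 and 380 CPM and the second had 14.99, 3.60 and 0 CPM. At 4 kb the first allele was the lower one in 5 of 7 clones, F2, F3, F4, G3 and G4, with 0 to 48.4 CPM against 59.7 to 214 CPM on the second allele. H7 and H8 showed the opposite, with 430 and 386 CPM on the first allele and 7.02 and 0 CPM on the second.

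The single 15 kb clone, H2, had 14 counts on the first allele and 165 on the second. Its level of 224 CPM has an exact 95% binomial interval of 193 to 260 CPM, and 3 of 90 Control clones were lower, all of them among the 150216 clones of P3 and P4. The first allele held 7.82% of its counts (exact 95% binomial interval 4.34 to 12.8%), and 0 of 89 Control clones had so low a percentage. The first allele was thus as low in this clone, at 17.5 CPM, as in the 2 kb clone B4. With 1 clone there is no replicate and no test.

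For the 40 bp and 0.5 kb groups the log2 fold changes were -1.79 ± 1.08 and -1.40 ± 0.77, and neither passed against the 12 Control clones of 150216 (edgeR, adjusted p = 0.962 and 0.418), nor without P3 and P4, at -1.68 and -1.28 (adjusted p = 0.854 and 0.199). When Control clones of every date label with these rows were the reference, they were -1.58 and -1.25 and did pass (adjusted p = 0.0139 and 0.0053), as they did without P3 and P4, at -1.56 and -1.25 (adjusted p = 0.00077 and 2.4e-05). No row passed in either comparison, so 0% were called lower, against 28 and 76 rows at an unadjusted p under 0.05 and, by DESeq2, 0 and 9 rows called. The 0.5 kb clones had an allelic deviation of 4.48 ± 1.10 and Control clones one of 1.49 ± 2.29 (exact permutation p = 0.0227, 4.6% of rows at that level, 0.596 after adjustment over all rows), and the difference of 2.99 was 4.30 without P3 and P4 (exact permutation p = 0.00303). It missed 0.05 without clone A8, at 2.45, and with a minimum of 50 counts, at 3.42 (exact permutation p = 0.0824 and 0.0513). The 40 bp group had 1 clone with enough counts and was not tested for it.

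The 2 kb and 4 kb groups were set against 90 Control clones of other dates, because no Control clone has their date label. linc1319 averaged 235 ± 143 CPM in 2 kb clones and 224 ± 142 CPM in 4 kb clones, against 691 ± 312 CPM in Control clones (SD). The falls of 1.66 ± 0.36 and 1.68 ± 0.30 on the log2 scale passed (edgeR, adjusted p = 8.16e-05 and 1.64e-06), but these comparisons called 25% and 30.6% of all rows lower and 21.9% and 25.8% higher, so a call here sets linc1319 little apart. Without P3 and P4 the falls were 1.64 and 1.65 (adjusted p = 1.66e-08 and 2.23e-11). Set against the 2 linc1405-pAS clones of their own date, with 372 and 397 CPM and log2 ratios of 1.85 and 1.88, the falls were 0.69 and 0.65 and did not pass (adjusted p = 0.573 and 0.338).

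The allelic measure, which compares both chromosomes within a clone, gave deviations of 4.45 ± 1.07 in 2 kb clones and 5.10 ± 1.82 in 4 kb clones, against 0.35 ± 0.88 and 0.35 ± 0.89 in Control clones (SD). It passed after adjustment over all rows, with exact permutation p = 8.22e-06 at 2 kb (0.00106 adjusted) and 5.46e-07 at 4 kb (9.66e-05 adjusted). The adjusted test called 5.98% and 11.7% of rows as larger, and the unadjusted one 22.8% and 27%. Among the 4 and 5 clones with at least 20 counts the lowest deviation was 3.08 at 2 kb and 3.41 at 4 kb. The differences of 4.11 and 4.76 were 4.27 and 4.92 without P3 and P4 (exact permutation p = 4.1e-07 and 2.27e-08). The levels at 2 kb and 4 kb did not differ detectably from each other, with a difference of -0.03 on the log2(CPM + 1) scale (exact permutation p = 0.97).

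In Control clones of 150801 and 151101, linc1319-Exon2 held 29.3 ± 3.2% of the linc1319 counts, linc1319-Exon3 66.7 ± 3.1% and linc1319-Exon4 26.6 ± 3.4% (SD, n = 44). These shares sum to more than the whole, so some reads were counted in several exon rows. Only an exon's share in modified clones against its share in Control clones is compared here. Removing an exon also takes its reads out of the whole row. By construction this lowers the row's total and raises the shares of the other exons. Ratios between exon rows are given beside the shares for that reason.

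**Figure D4:**
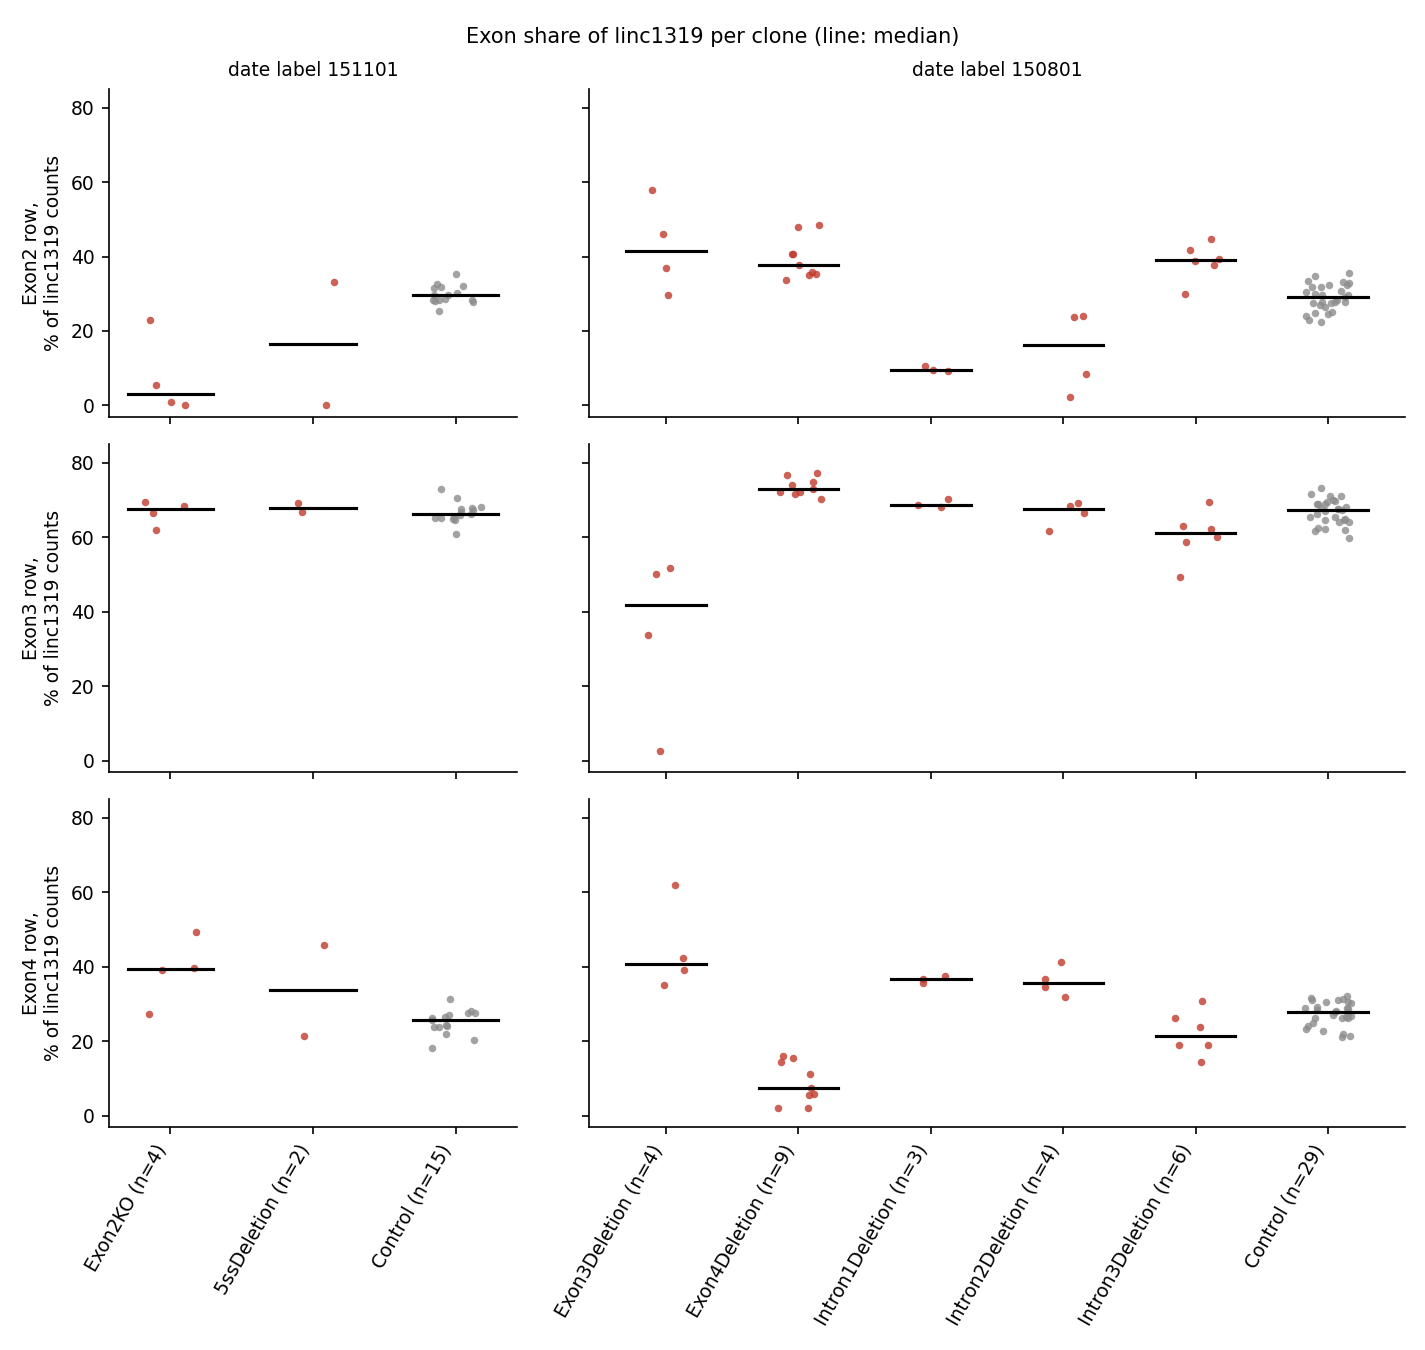
Share of linc1319 counts (percent) in the Exon2, Exon3 and Exon4 rows per clone, by date label, with modified clones in red, Control clones in grey and the median as a line. The exon named in the label is low in Exon2KO, Exon3Deletion and Exon4Deletion clones, and the Exon2 row is low in Intron1Deletion clones, at 9.2 to 10.6%.

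Exon2KO clones had less linc1319 on both alleles, with Exon2 lost on both alleles in some clones and on 1 in others. The totals of A9, B7, D6 and G3 were 120, 312, 339 and 352 CPM, all below the Control range of 429 to 996 CPM, and both alleles were below their own Control ranges in all 4. Exon2 counts on the first and the second allele were 0 and 0 in A9, 2 and 1 in B7, 1 and 16 in D6, and 38 and 3 in G3. A9 and B7 thus had almost no Exon2 reads on either allele, D6 kept them on the second allele and G3 on the first.

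linc1319 averaged 281 ± 108 CPM in Exon2KO clones and 676 ± 152 CPM in Control clones (SD, n = 4 and 15). It fell by 1.28 ± 0.25 on the log2 scale (edgeR, adjusted p = 0.0103; 0.587% of rows were called lower), but without clone B7 the adjusted p was 0.0541. The Exon2 row fell by 3.08 ± 0.62 and the Exon3 row by 1.29 ± 0.25, both with an adjusted p of 0.0103, whereas the Exon4 row changed by -0.65 ± 0.25 and did not pass (adjusted p = 0.297). Of the 3 exon rows 2 were therefore called lower. Leaving out B7 or D6 also took the Exon2 call to an adjusted p of 0.0541 or 0.0929, and leaving out B7 took the Exon3 call to 0.0541.

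As shares, Exon2 held 7.32 ± 10.7% in Exon2KO clones and 29.8 ± 2.4% in Control clones, Exon3 66.6 ± 3.4% and 66.6 ± 2.8%, and Exon4 38.9 ± 9.0% and 25.1 ± 3.3% (SD). By exact permutation, adjusted over the 21 share tests, the Exon2 fall (p = 0.000542) and the Exon4 rise (p = 0.00208) passed. For every 100 Exon3 counts there were 58.8 ± 15.9 Exon4 counts in Exon2KO clones and 37.9 ± 6.3 in Control clones. The allelic deviation was 1.496 ± 1.37 in Exon2KO clones and 0.28 ± 0.23 in Control clones (exact permutation p = 0.00155, 2.51% of rows at that level, 0.74 after adjustment over all rows), with A9 at a log2 ratio of 0.21 and B7 at 4.93.

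The 2 clones of 5ssDeletion differed from each other. B2 had 64 counts on the first allele and 313 on the second, and F10 had 12 and 12. In CPM the first allele had 56.7 and 13.8, below all 15 Control clones (329 to 797 CPM), and the second had 277 in B2, just above the Control range of 101 to 276 CPM, and 13.8 in F10. The Exon2 row held 33.2% of the counts in B2, near the 29.8% of Control clones, and 0 of 24 counts in F10, which allows up to 12.5%.

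The log2 fold change of linc1319 was -1.96 ± 0.53 and did not pass (edgeR, adjusted p = 0.244, 0% of rows called lower, with 10 rows at an unadjusted p under 0.05 and 4 called by DESeq2). DESeq2 called linc1319 lower at -1.97 (adjusted p = 0.00244), as did edgeR against Control clones of both dates with exon rows, at -1.87 (adjusted p = 0.00799). Without B2 the value was -4.63 and without F10 -1.08, so the size rests on which clone is kept. The allelic deviation was 2.53 ± 1.61 in 5ssDeletion clones and 0.27 ± 0.25 in Control clones (exact permutation p = 0.00735, the smallest that 136 splits allow; 1.91% of rows at that level; 0.96 after adjustment over all rows). The level did not differ detectably from Exon2KO (difference -1.41 on the log2(CPM + 1) scale, exact permutation p = 0.2).

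In Exon3Deletion clones Exon3 reads were nearly absent from 1 or both alleles, and no change of the linc1319 total was detected over the group. Within the first allele Exon3 held 8.0% of linc1319 counts in A3, 69.2% in B4, 2.1% in B7 and 2.4% in H2, and within the second 68.6, 3.2, 3.4 and 69.1%. Control clones of 150801 had 59.5 to 75.8% on the first allele and 55.8 to 93.8% on the second, the highest being clone B12 of P10. Exon3 was thus nearly absent from the first allele in A3 and H2, from the second in B4 and from both in B7.

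The totals of A3, B4, B7 and H2 were 292, 909, 832 and 571 CPM. A3 lay below all 29 Control clones (326 to 1102 CPM), with 89.7 CPM on its first allele where Control clones had at least 295 CPM, and the other 3 clones lay within the Control range. linc1319 averaged 651 ± 280 CPM in Exon3Deletion clones and 648 ± 164 CPM in Control clones (SD, n = 4 and 29). The log2 fold change was -0.04 ± 0.20 (edgeR, adjusted p = 0.932), and none of the 4 linc1319 rows passed. The Exon2 row was at 0.60 ± 0.23, the Exon3 row at -1.10 ± 0.32 and the Exon4 row at 0.70 ± 0.22 (edgeR, adjusted p = 0.182, 0.15 and 0.15). Exon3 held 66.7% of the row in Control clones, so an unchanged total does not mean that the rest of the transcript was unchanged. No row at all was called (0% in each direction), with 109 rows at an unadjusted p under 0.05 and 11 called by DESeq2, which counted the Exon3 row among them at -1.11 (adjusted p = 0.0242).

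The share of Exon3 was 34.5 ± 22.8% in Exon3Deletion clones and 66.7 ± 3.3% in Control clones, and those of Exon2 and Exon4 were 42.6 ± 12.2% and 44.6 ± 11.9% in Exon3Deletion clones and 29.01 ± 3.5% and 27.4 ± 3.2% in Control clones. All 3 passed (exact permutation, adjusted p = 8.55e-05, 0.00124 and 8.55e-05). The ratio of Exon4 to Exon2 counts uses no counts of the deleted exon. It was 106 ± 22 per 100 in the 3 Exon3Deletion clones with at least 20 Exon3 counts and 96.5 ± 19.9 per 100 in Control clones. That minimum left out B7, the clone that lacked Exon3 on both alleles. On the allele that lacked Exon3 the shares of Exon2 and Exon4 were 38.9 and 59.3% in A3, 62.2 and 59.01% in B4 and 55.6 and 61.95% in H2. In B7, which lacked it on both, they were 54.2 and 62.97% on the first allele and 63.5 and 60.2% on the second, so A3 had the lowest Exon2 share of these. The allelic deviation of the whole row was 1.13 ± 1.03 in Exon3Deletion clones and 0.32 ± 0.37 in Control clones (exact permutation p = 0.0139, 1.99% of rows at that level, 0.955 after adjustment over all rows); without clone A3 the difference of 0.81 was 0.35, with an exact permutation p of 0.113. Without clone B12 of P10 among the Control clones it was 0.84 (exact permutation p = 0.00281).

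In Exon4Deletion clones the linc1319 row was lower, and the first allele was the one below Control in every clone. That row holds the Exon4 reads, so part of the fall is the loss of Exon4 itself. The Exon2 and Exon3 rows changed less, by -0.35 and -0.62 on the log2 scale, against -0.76 for the whole row. First-allele levels in the 9 Exon4Deletion clones ran from 147 to 268 CPM with a median of 199 CPM, against 295 to 781 CPM in the 29 Control clones. On the second allele they ran from 60.7 to 358 CPM with a median of 184 CPM, against 30.1 to 321 CPM. The groups did not overlap on the first allele, whose total lacks nearly all Exon4 reads, and overlapped on the second. First-allele levels of the Exon2 row lay below all Control clones in 3 of 9 clones, and those of the Exon3 row in 8 of 9. Such a separation was not counted over other rows.

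Exon4 counts on the first allele were between 2 and 11 in all 9 clones, at most 7.9% of the first allele's linc1319 counts, where Control clones had 21.1 to 34.3%. On the second allele A5, D3 and E11 had 100, 130 and 93 Exon4 counts, shares of 26.2, 24.1 and 25.98% that lie in the Control range of 12.5 to 38.3%, and B10, D8 and H6 had 14.1, 17.1 and 10.8%. A6, B5 and D9 had 0, 1 and 4 counts there, shares of 0, 1.9 and 3.4%. So Exon4 was nearly absent from the first allele in all 9 clones and from the second in 3.

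linc1319 averaged 392.03 ± 127 CPM in Exon4Deletion clones and 648 ± 164 CPM in Control clones (SD, n = 9 and 29), a fall of 0.76 ± 0.15 on the log2 scale (edgeR, adjusted p = 0.00182; 0.677% of rows were called lower). The Exon4 row fell by 2.15 ± 0.28 (adjusted p = 1.55e-06) and the Exon3 row by 0.62 ± 0.15 (adjusted p = 0.0296), whereas the Exon2 row changed by -0.35 ± 0.14 and did not pass (adjusted p = 0.27). The whole row and 2 of 3 exon rows made up 3 of the 4 rows called lower.

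The Exon4 share was 8.93 ± 5.55% in Exon4Deletion clones and 27.4 ± 3.2% in Control clones, the Exon2 share 39.5 ± 5.5% and 29.01 ± 3.5%, and the Exon3 share 73.6 ± 2.4% and 66.7 ± 3.3% (SD). All passed (exact permutation, adjusted p = 1.29e-07, 7.08e-07 and 5.24e-06). For every 100 Exon3 counts there were 53.8 ± 8.6 Exon2 counts in Exon4Deletion clones and 43.7 ± 6.7 in Control clones, ranges of 45.5 to 68.9 and 30.5 to 57.5 that overlap. The allelic deviation of the row was 1.02 ± 0.76 in Exon4Deletion clones and 0.33 ± 0.38 in Control clones (exact permutation p = 0.0016, 1.6% of rows at that level, 0.7 after adjustment over all rows), and the log2 ratio was below the lowest Control value of 0.72 in 6 of 9 clones. The difference of 0.69 was 0.75 without clone B12 of P10 (exact permutation p = 0.000206).

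**Figure D5:**
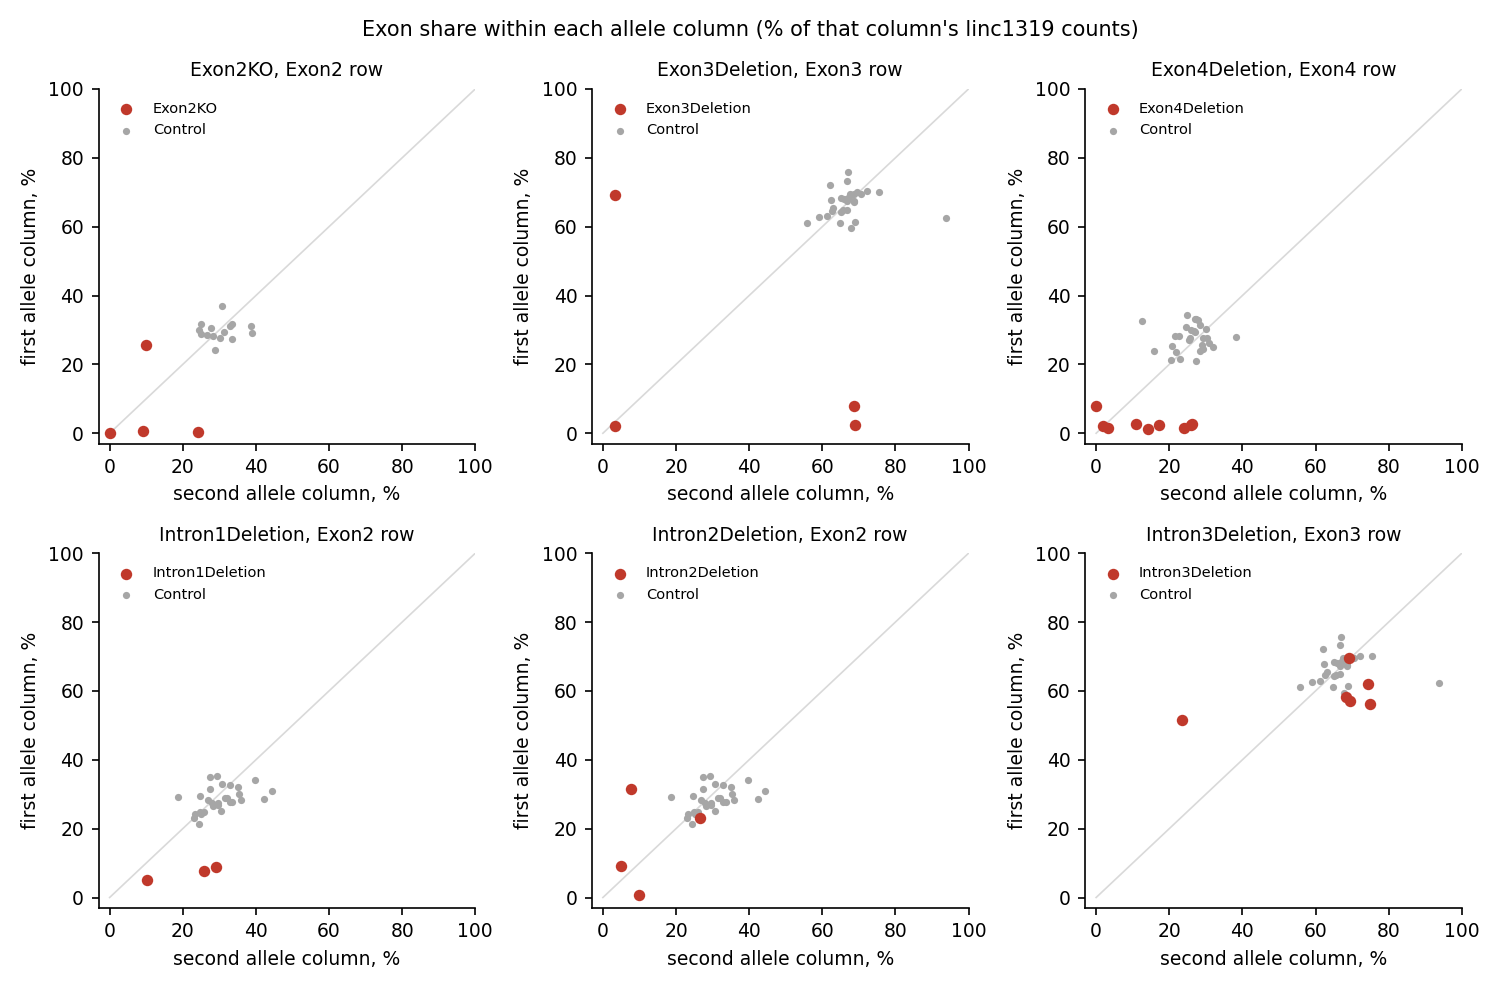
Share of an exon row among the linc1319 counts of the first allele column (vertical axis, percent) against the same share of the second (horizontal axis), per clone, in 6 groups (red) and the Control clones of their date (grey), with the line of equal shares. Exon3Deletion clones lie near 0 on 1 axis or both, and all 9 Exon4Deletion clones lie at or below 7.9% on the vertical axis.

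Intron1Deletion clones had more linc1319 than any Control clone of their date, and the excess was on 1 allele of each clone. B7, C4 and H6 had 1566, 1538 and 1848 CPM, against 326 to 1102 CPM in the 29 Control clones. The first allele had 1412 and 1403 CPM in B7 and C4, above the Control maximum of 781 CPM, while their second alleles had 155 and 135 CPM, within the Control range of 30.1 to 321 CPM. H6 was the reverse, with 1506 CPM on the second allele and 342 CPM on the first. In each clone 1 allele exceeded all Control clones and the other lay among them.

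linc1319 averaged 1651 ± 171 CPM in Intron1Deletion clones and 648 ± 164 CPM in Control clones (SD, n = 3 and 29). It rose by 1.31 ± 0.18 on the log2 scale (edgeR, adjusted p = 2.53e-06; 1.03% of rows were called higher). The Exon3 row rose by 1.36 ± 0.18 (adjusted p = 2.53e-06) and the Exon4 row by 1.73 ± 0.19 (adjusted p = 7.44e-08), but the Exon2 row did not pass at -0.26 ± 0.22 (adjusted p = 0.616). Of the 6 rows called higher, 3 were these linc1319 rows.

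Exon2 therefore held a smaller share, 9.78 ± 0.72% in Intron1Deletion clones and 29.01 ± 3.5% in Control clones, Exon4 a larger one, 36.7 ± 0.9% and 27.4 ± 3.2% (both exact permutation, adjusted p = 0.00047), and Exon3 68.98 ± 1.1% and 66.7 ± 3.3% (adjusted p = 0.311). Within the raised allele the Exon2 share was 7.7% in B7, 8.8% in C4 and 10.2% in H6, and within the other allele 25.9% and 28.99% in B7 and C4, but 5.0% in H6, from 14 of 279 counts. The second-allele Exon2 shares of B7 and C4 lay in the Control range of 18.8 to 44.3%, whereas the 5.0% of H6 lay below the first-allele range of 21.4 to 35.3%.

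The allelic deviation was 2.44 ± 0.95 in Intron1Deletion clones and 0.32 ± 0.37 in Control clones (exact permutation p = 0.000403, 5.05% of rows at that level, 0.0893 after adjustment over all rows). Without clone B12 of P10 among the Control clones the difference of 2.12 became 2.18 (exact permutation p = 0.000222).

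Intron2Deletion clones had linc1319 levels of 525, 1189, 710 and 981 CPM in A8, B3, B6 and B8, and 1 of them, B3, lay above all Control clones. The mean was 851 ± 293 CPM in Intron2Deletion clones and 648 ± 164 CPM in Control clones (SD, n = 4 and 29), and the log2 fold change of 0.34 ± 0.18 did not pass (edgeR, adjusted p = 0.22). The Exon4 row rose by 0.75 ± 0.20 (adjusted p = 0.0196), in a comparison that called 6.45% of rows higher and 3.74% lower, and without B3 the rise was 0.45 (adjusted p = 0.311). The Exon2 row at -0.80 ± 0.29 (adjusted p = 0.0674) and the Exon3 row at 0.34 ± 0.19 (adjusted p = 0.231) did not pass.

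The Exon2 share was again low, 14.7 ± 11.01% in Intron2Deletion clones and 29.01 ± 3.5% in Control clones, and the Exon4 share high, 36.1 ± 4.0% and 27.4 ± 3.2%, with Exon3 at 66.5 ± 3.3% and 66.7 ± 3.3% (exact permutation, adjusted p = 0.000653, 0.000147 and 0.932). Within the first and the second allele Exon2 held 23.03 and 26.6% in A8, 0.64 and 9.8% in B3, 9.2 and 5.0% in B6, and 31.6 and 7.6% in B8. A8 thus lay in the Control ranges on both alleles, B8 below on the second only, and B3 and B6 below on both. For every 100 Exon3 counts there were 54.4 ± 5.2 Exon4 counts in Intron2Deletion clones and 53.2 ± 2.0 in Intron1Deletion clones, against 41.2 ± 5.7 in Control clones. No allelic deviation of the whole row was detected, 0.42 ± 0.31 in Intron2Deletion clones and 0.32 ± 0.37 in Control clones (exact permutation p = 0.59, 2.15% of rows larger at that level), and without clone B12 of P10 the difference of 0.10 was 0.16 (exact permutation p = 0.211).

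Intron3Deletion clones had linc1319 levels of 471 to 675 CPM with a median of 623 CPM, all within the Control range, and averaged 593 ± 89 CPM, against 648 ± 164 CPM in Control clones (SD, n = 6 and 29). The whole row changed by -0.17 ± 0.15 on the log2 scale, and neither it nor any exon row passed (edgeR, adjusted p = 0.548 for the row and 0.431, 0.324 and 0.13 for Exon2, Exon3 and Exon4). No row was called (0% in each direction), with 102 rows at an unadjusted p under 0.05 and 15 called by DESeq2. The Exon2 share rose, to 38.8 ± 5.0% in Intron3Deletion clones against 29.01 ± 3.5% in Control clones, and those of Exon3 and Exon4 fell, to 60.5 ± 6.6% and 22.2 ± 5.9% against 66.7 ± 3.3% and 27.4 ± 3.2% (exact permutation, adjusted p = 7.12e-05, 0.00303 and 0.00645).

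The log2 ratios of some clones lay far from the Control median, on either side of it. A7, B6 and C1 had 38.9, 52.9 and 62.97 CPM on the second allele, within the Control range of 30.1 to 321 CPM but below its median of 181 CPM, and log2 ratios of 3.53, 3.41 and 2.68. A9 had a ratio of 0.66, just below the lowest Control value of 0.72, with 242 CPM on the second allele, and B3 and E1 lay among Control clones at 1.65 and 1.74. The deviation was 1.08 ± 0.81 in Intron3Deletion clones and 0.33 ± 0.38 in Control clones (exact permutation p = 0.00326, 2.51% of rows at that level, 0.605 after adjustment over all rows), and the difference of 0.75 was 0.83 without clone B12 of P10 (exact permutation p = 0.000558). On the second allele Exon4 had 0 of 43 counts in B6, which allows up to 6.98%, and 2 of 48 in C1, a share of 4.2%, while Exon3 held 23.4% of 47 counts in A7.

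Whether an exon's share differed between the alleles of a clone was compared in 18 tests of the size of that difference, over clones with at least 20 counts on each allele. In Exon3Deletion clones the Exon3 shares of both alleles differed with a deviation of 49.1 ± 31.4 percentage points, against 3.19 ± 2.81 points in Control clones (exact permutation, adjusted p = 0.0015). The same measure passed for the named exon in Exon4Deletion clones, 13.04 ± 9.2 points for Exon4 against 4.26 ± 2.63 points in Control clones (adjusted p = 0.00135), and in Exon2KO clones, 13.4 ± 11.4 points for Exon2 against 4.14 ± 2.76 points in Control clones (adjusted p = 0.0252). For Exon2 it was 12.003 ± 8.2 points in Intron1Deletion clones and 10.2 ± 10.7 points in Intron2Deletion clones, against 3.65 ± 3.29 and 3.61 ± 3.30 points in Control clones (adjusted p = 0.01 and 0.0353). In all, 15 of the 18 tests passed, and the 3 that did not were those of Exon3 in Exon2KO, Intron1Deletion and Intron2Deletion clones (exact permutation, adjusted p = 0.966, 0.966 and 0.228). Loss of an exon from 1 allele by construction moves that exon's share on that allele and can move those of the others. Calls in Exon2KO, Exon3Deletion and Exon4Deletion clones are therefore checks of the labels and no separate findings. Single clones ended 5 of the 15 calls. Omission was tried only in groups of up to 5 clones, so the calls of Exon4Deletion and Intron3Deletion clones were not tried this way. In Exon2KO clones the Exon2 difference of 9.22 points was 3.56 without D6 and 7.82 without G3 (adjusted p = 0.273 and 0.106), and the Exon4 difference of 11.1 points was 7.13 without A9 and 8.52 without D6 (adjusted p = 0.0882 and 0.0851). Without C4 the Exon2 and Exon4 differences of Intron1Deletion clones, 8.35 and 8.14 points, were 5.77 and 5.00 (both adjusted p = 0.0579), and without B8 the Exon2 difference of Intron2Deletion clones, 6.61 points, was 1.35 (adjusted p = 0.592). A minimum of 50 counts ended the Exon4 call of Intron3Deletion clones, with 7.79 points becoming 2.85 (adjusted p = 0.154).

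Modifications that shared a date were compared with each other in 16 pairs, by two-sided exact permutation on the log2(CPM + 1) scale. Exon4Deletion clones had less linc1319 than Intron1Deletion clones (difference -2.13, adjusted p = 0.0364), Intron2Deletion clones (-1.12, adjusted p = 0.0364) and Intron3Deletion clones (-0.65, adjusted p = 0.0469), and Intron1Deletion clones had more than Intron3Deletion clones (1.48, adjusted p = 0.0476). These totals include the loss of Exon4 reads in Exon4Deletion clones. The other 12 pairs did not pass. Of these, Exon3Deletion and Exon4Deletion differed by 0.67 (adjusted p = 0.157), Intron1Deletion and Intron2Deletion by 1.02 (adjusted p = 0.152), and PromoterInsertion and the 40 bp group by 0.55 (adjusted p = 0.909). With 3 against 4 clones no p below 0.0286 can be reached before adjustment, so a miss leaves such differences undecided. Both calls on Intron1Deletion missed 0.05 when any of its 3 clones was left out, with exact permutation adjusted p of 0.097 and 0.143. With 1 clone fewer too few splits remain for either call to pass after adjustment, so these misses do not test the calls. The differences then ran from -2.18 to -2.05 against Exon4Deletion and from 1.40 to 1.53 against Intron3Deletion. The call on Exon4Deletion and Intron2Deletion missed it without B3 (-0.93, adjusted p = 0.0727), B6 (-1.18, adjusted p = 0.0546) or B8 (-1.02, adjusted p = 0.0546).

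Ordered by log2 fold change against the Control clones of their own date label, the groups ran from 5ssDeletion (-1.96), PromoterDeletion (-1.95), the 40 bp pAS (-1.79), the 0.5 kb pAS (-1.40), Exon2KO (-1.28) and Exon4Deletion (-0.76), through PromoterInsertion (-0.41), Intron3Deletion (-0.17), Exon3Deletion (-0.04) and Sfmbt2-PromoterDeletion (0.10), to Intron2Deletion (0.34) and Intron1Deletion (1.31). In the exon deletions these totals also lack the reads of the deleted exon, so the order is not one of transcript levels alone. Of the neighbours in that order, 3 pairs had a shared date and were tested, and none of them passed. Without clone B12 of P10 the values of its date were -0.78 (Exon4Deletion), -0.20 (Intron3Deletion), -0.07 (Exon3Deletion), 0.31 (Intron2Deletion) and 1.29 (Intron1Deletion), with the same calls.

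Sfmbt2 passed the test in 4 of the 14 comparisons, each time in the same direction as linc1319. Its largest falls on the log2 scale, 2.29 ± 0.76 at 40 bp and 1.71 ± 0.43 in 5ssDeletion clones, did not pass (edgeR, adjusted p = 0.616 and 0.187). A miss is therefore not an absence of change. On the log2 scale Sfmbt2 fell by 1.25 ± 0.29 at 2 kb and by 1.04 ± 0.24 at 4 kb (edgeR, adjusted p = 0.000221 and 0.000162), in the comparisons that called most rows. These called 25% and 30.6% of rows lower. Of the 6 tested rows within 1 Mb, Sfmbt2 among them, each called 3 lower and 1 higher, the others being Atp5c1, Kin and Taf3. In PromoterDeletion clones Sfmbt2 fell by 1.19 ± 0.25 (edgeR, adjusted p = 0.00317, with 2.25% of rows called lower), and Atp5c1 was called as well. Sfmbt2 rose by 1.40 ± 0.20 in Intron1Deletion clones (edgeR, adjusted p = 1.1e-05, with 1.03% of rows called higher). There B7 and C4 had 1754 and 1879 CPM of Sfmbt2 on the first allele and H6 had 801 CPM on the second. In Exon4Deletion clones, where the linc1319 row fell, Sfmbt2 changed by 0.23 ± 0.14 and did not pass (edgeR, adjusted p = 0.499). In Exon2KO clones it changed by -0.86 ± 0.28 (edgeR, adjusted p = 0.181).

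The rows whose level followed linc1319 most closely were ranked by Spearman's rho over the 134 Control clones, among 532 rows, as a description. Tmem106c (rho 0.52, Pearson's r 0.30), linc1588 (0.44, 0.26), Apln (0.44, 0.13), 4930461G14Rik (0.43, 0.24) and Sfmbt2 (0.43, 0.61) came first, and only Sfmbt2 lies on chromosome 2. Levels were log2(CPM + 1), centred on the mean of each date label. Depth differed between these clones, with library totals from 65278 to 2981776, and its effect on the ranking was not tested. Without the Control clones of 150216, Tmem106c remained first with rho 0.68 over 122 clones, and Sfmbt2 ranked 68 with rho 0.30.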

How the data were processed

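The authors deposited whole-number counts per transcript row with 1 column per allele, not normalized as far as the values show. Per the submitters' processing notes the build was mm9; the aligner, the counter and how reads got their allele were not given in the sources used here. Hybrid selection was done on pools of barcoded libraries, per the labels' protocols. The files list 692, 903 or 908 rows, and those with 692 hold no linc1319 row. The other 23 samples (ATAC, ChIP and PRO-seq) were not analysed here.

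A row's total was the sum of both columns, which leaves out reads without a distinguishing variant. Exon rows and rows with the counts of an overlapping row (5 of 903 and 7 of 908 rows) stayed out of the library totals behind CPM. Totals were tested with edgeR 4.0.16 in R 4.3.3 (TMM factors, quasi-likelihood test, rows averaging 10 or more counts, p-values adjusted over all rows by Benjamini-Hochberg, threshold 0.05). The reference was the Control clones of the group's own date label and, for the pAS groups at 2 kb or more, whose date has none, the 90 Control clones with the same rows. Exon rows share their reads with the whole row and are no independent tests. Allele ratios had a pseudocount of 0.5 and needed 20 counts. The allelic, exon share and pairwise comparisons were two-sided exact permutation tests over clones, written with NumPy 2.4.6 and numba (Python 3.11.15). The binomial intervals of the 15 kb clone came from SciPy 1.17.1. For the allelic deviation of linc1319 the p of that row alone is given first and the p adjusted over all rows beside it.

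Both tests were run on simulated data first. Libraries of 1 group were separate clones, none identical to another. Alternatives were DESeq2 1.42.0, no TMM factors, no minimum count, Control clones of every date, other minimums, denominators, scalings and pseudocounts, and the omission of single clones from groups of up to 5. The 4 rows, the gene lists and the tests were chosen with earlier results of these data known. The genes named by likeness were the 5 with the highest rho.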

Additional observations from a re-analysis of the deposited data

Results flagged for a closer look

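Over 75 sets of clone values (level, allele ratio, exon share and allelic difference of the 4 rows, in groups of 4 to 10 clones), 1 held a clone far from the others, where chance flags about 1 set in 20. In the pAS 0.5 kb group the log2 ratio of clone A8 was 7.33 and the nearest of the other 3 clones had -2.48, a gap of 0.947 of the whole range. A8 is the clone with 80 first-allele and 0 second-allele counts, and the other 3 had the first allele as the lower one.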

How the results depend on the processing

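Each result was recomputed under each alternative, with 1 choice changed at a time. Of the alternatives, 91 of 105 kept the direction and the side of the threshold for the linc1319 total, 115 of 133 for the exon totals, 85 of 89 for the allelic deviation, 114 of 120 for the exon shares, 83 of 93 for the allelic differences of exon shares and 88 of 104 for the pairs. The cause was not tested for those below, except that leaving out a clone also leaves fewer samples. No paired analysis was possible because replicate numbers were given in accession order and pair no clones.

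Control clones of every date as the reference changed the log2 fold change of the total to -1.87 in 5ssDeletion, -1.25 at 0.5 kb and -1.58 at 40 bp, all past the threshold (at 0.5 kb and 40 bp also without P3 and P4, with -1.25 and -1.56), and to -0.0206, of the other sign, in Sfmbt2-PromoterDeletion. They also took past it the Exon3 (-1.82) and Exon4 (-2.04) rows of 5ssDeletion and the Exon4 row of Exon2KO (-0.64). DESeq2 called the 5ssDeletion total (-1.97), its Exon3 (-1.92) and Exon4 (-2.03) rows, the Exon3 row of Exon3Deletion (-1.11) and the Exon2 row of Intron2Deletion (-0.80). Without TMM factors the Exon3Deletion total was 0.0056, of the other sign (adjusted p = 0.989). Against the 2 linc1405-pAS clones, the 2 kb (-0.69) and 4 kb (-0.65) totals missed the threshold. This alternative was chosen after seeing the data, as were those without P3 and P4 or without clone B12 of P10. With a minimum of 50 counts the allelic deviation at 0.5 kb differed by 3.42 (exact permutation p = 0.0513), and the Exon4 allelic difference of Intron3Deletion by 2.85 points (exact permutation, adjusted p = 0.154), both missing it. With the sum of the exon rows as denominator the Exon3 share differed from that of Control clones by 4.28 points in Exon2KO and 2.62 points in Intron2Deletion, both of the other sign, and by 5.56 points in Intron1Deletion, which then passed.

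Leaving out 1 clone moved these totals across the threshold or 0, with these lowest and highest log2 fold changes: 5ssDeletion -4.63 and -1.08, Exon2KO -1.44 and -1.04, Exon3Deletion -0.24 and 0.21. With 1 clone left, the 5ssDeletion clone is assumed to vary like the other groups. For the Exon2, Exon3 and Exon4 rows they were -10.4 and -0.93, -4.63 and -1.03, and -3.74 and -1.29 in 5ssDeletion, and 0.22 and 0.91, -1.90 and -0.74, and 0.28 and 0.97 in Exon3Deletion. They were -4.78 and -2.60 for Exon2 and -1.45 and -1.06 for Exon3 in Exon2KO, and -1.46 and -0.47 for Exon2 and 0.45 and 0.93 for Exon4 in Intron2Deletion. The difference in allelic deviation ran from 0.35 to 1.11 in Exon3Deletion, from -0.0055 to 0.22 in Intron2Deletion and from 2.45 to 3.25 at 0.5 kb. The Exon3 share difference ran from -1.002 to 1.54 points in Exon2KO and from -1.13 to 1.33 points in Intron2Deletion. The allelic difference of exon shares ran, for Exon2, Exon3 and Exon4, from 3.56 to 15.6, from -0.86 to 1.10 and from 7.13 to 17.7 points in Exon2KO, from 5.77 to 13.3, from -1.73 to 1.51 and from 5.00 to 11.8 points in Intron1Deletion, and for Exon2 from 1.35 to 9.41 points in Intron2Deletion. For the pairs, on the log2(CPM + 1) scale, it ran from 0.47 to 1.01 (Exon3Deletion minus Exon4Deletion), -0.18 to 0.36 (Exon3Deletion minus Intron3Deletion), -2.18 to -2.05 (Exon4Deletion minus Intron1Deletion), -1.32 to -0.93 (Exon4Deletion minus Intron2Deletion), 1.40 to 1.53 (Intron1Deletion minus Intron3Deletion), 0.28 to 0.68 (Intron2Deletion minus Intron3Deletion), -0.64 to 2.08 (PromoterInsertion minus 40 bp) and -0.29 to 0.51 (2 kb minus 4 kb).

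The allelic measures of the 40 bp group and of 5ssDeletion with 1 clone, and the exon allelic difference of 5ssDeletion, left too few clones and gave no value. The groups are small and the clones of 1 group differ in which allele carries less RNA, so group means and SDs describe mixtures. Where linc1319 is low, a ratio rests on few counts: 19 at 40 bp in A6 and 24 in clone F10 of 5ssDeletion. The 2 kb, 4 kb and 15 kb clones have no Control clones of their date. Date and modification therefore cannot be told apart in their levels or in their allelic deviations. At 2 kb and 4 kb 22.8% and 27% of all rows had a larger deviation at an unadjusted exact permutation p under 0.05. Labels naming neither the edited chromosome nor the strain of a column leave a low allele unassigned.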
